A study of Mus musculus with 57 samples.

Results

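A set of 10 glucocorticoid and FOXO target genes was followed in the prefrontal cortex of mice heterozygous for Shank2 and of wild-type mice. They are Fkbp5, Tsc22d3, Sgk1, Zbtb16, Per1, Cebpd, Nfkbia, Ddit4, Depp1 and Plekhf1, 10 of the 51456 identifiers in the deposited expression table. All 10 were above 0 in every library and all were among the 16659 genes tested. They were chosen by name with earlier results of these libraries known: Ddit4, Depp1, Cebpd and Plekhf1 had been selected on their log2 difference between lithium and vehicle in heterozygous mice, where they were lower. Values from heterozygous mice under lithium, and correlations among the 10, are therefore given below as descriptions without a test.

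RNA sequencing covered the prefrontal cortex of 57 mice of the C57BL/6N strain, 30 heterozygous for Shank2 (HT) and 27 wild type (WT), of both sexes. Shank2 encodes a scaffold of excitatory synapses. Dams were given lithium, a mood stabilizer, fluoxetine, a serotonin reuptake inhibitor, or vehicle, so that pups took the drug in milk from postnatal day 3 to 24, and tissue was taken on day 25. The 6 arms were HT lithium (10 libraries), HT fluoxetine (10), HT vehicle (10), WT lithium (9), WT fluoxetine (10) and WT vehicle (8), each with 4 or 5 libraries of a sex. All groups, vehicle included, were dosed through the dam; no litter is given in the labels, so pups of the same dam cannot be told apart, and the p-values rest on how these libraries vary, whatever their litters.

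The glucocorticoid receptor is a hormone-activated transcription factor. In brain, corticosterone released by stress or by the daily rhythm brings it to response elements near genes such as Fkbp5, Sgk1, Tsc22d3 and Per1. FOXO factors are held outside the nucleus when PI3K and AKT signalling is active and induce genes such as Ddit4 and Depp1 when it is low. Lithium inhibits glycogen synthase kinase 3, which acts downstream of AKT. Several of these genes are shared targets, and SGK1 itself phosphorylates FOXO proteins.

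Values are the authors' normalized estimated counts, and library totals of these values ran from 30.4 M to 33.2 M. The number of sequenced reads behind each value is unknown, since the deposited values are not whole. Shank2 was 3877 to 5006 in HT libraries and 6762 to 11791 in WT libraries, without overlap. Slc17a7 and Neurod6, markers of cortical excitatory neurons, were high in every library, at 44452 to 68522 and 1579 to 3375. A low median correlation with the others set 3 libraries apart, WT vehicle male 2 (0.968), HT fluoxetine male 3 (0.970) and WT vehicle female 1 (0.977), against a highest value of 0.986. No library was left out. For several results, but not all, values without some or all of these 3 libraries are also given. The labels name no sequencing or extraction batch.

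Promoter sequences of RefSeq on GRCm38.p6 were available for 8 of the 10 genes, in 16 windows, since Sgk1, Tsc22d3 and Per1 have several starts. The 250 bases before each start were searched on both strands for 6 motifs. The 3 windows shown were taken because each holds a match to a motif of a pathway that the gene is known for. In the Sgk1 window at chr10:21993640-21993889, plus strand, capitals mark a match to the glucocorticoid response element (GNACA and TGTNC with 3 bases between them), at positions -188 to -176 from the start. In the Nfkbia window at chr12:55492648-55492897, minus strand, capitals mark a match to the NF-kB motif (GGGA and TTTCC with 1 base between them, here on the other strand), at positions -29 to -20. In the Per1 window at chr11:69099902-69100151, plus strand, capitals mark the core of a cAMP response element (TGACGT), at positions -132 to -127.
Sgk1: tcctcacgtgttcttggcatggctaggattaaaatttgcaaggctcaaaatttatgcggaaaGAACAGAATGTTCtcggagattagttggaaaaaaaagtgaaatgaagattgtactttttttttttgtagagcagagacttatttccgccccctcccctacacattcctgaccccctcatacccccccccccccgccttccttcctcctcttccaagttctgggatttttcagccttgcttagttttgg
Nfkbia: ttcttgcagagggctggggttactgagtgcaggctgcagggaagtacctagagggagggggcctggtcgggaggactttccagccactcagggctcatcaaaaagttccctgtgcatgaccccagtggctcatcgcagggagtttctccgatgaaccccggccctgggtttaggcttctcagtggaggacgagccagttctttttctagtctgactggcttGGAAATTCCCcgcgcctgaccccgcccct
Per1: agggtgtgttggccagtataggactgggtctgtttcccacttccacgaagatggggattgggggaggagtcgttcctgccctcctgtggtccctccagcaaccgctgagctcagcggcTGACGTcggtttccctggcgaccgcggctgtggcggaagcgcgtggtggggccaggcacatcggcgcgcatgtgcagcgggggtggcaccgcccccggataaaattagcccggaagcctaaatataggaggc

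Of 32851 promoter windows of the same length in the table, 0.387% held the glucocorticoid response element, 0.356% the NF-kB motif and 6.47% the cAMP core. The E-box CACGTG, to which clock factors bind, was in 6.02% of all windows and was matched in the printed Sgk1 window (overlapping the receptor motif below), in another Per1 window and in the Fkbp5 window. The shorter receptor motif TGTTCT, held by 16.1% of windows, lay in 3 Sgk1 windows and 1 Tsc22d3 window, and in the printed Sgk1 window it also overlapped the full element at both ends. For FOXO factors only the form GTAAACA was searched. This form, held by 3.17% of windows, was found in no window of the 8 genes. The related letters GTAAATA, whose share of windows was not computed, occur in the Depp1 window. These are matches of letters in a short window and say nothing about elements elsewhere in the genes.

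The 10 genes span a wide range of levels. Divided by the median length of their transcripts, mean levels over all libraries were 2460 normalized counts per kb for Sgk1, 1477 for Fkbp5, 1152 for Tsc22d3, 858 for Per1, 837 for Ddit4, 548 for Nfkbia and 325 for Zbtb16. Cebpd (52.8), Depp1 (36.7) and Plekhf1 (20.3) were far lower on the same scale. The median length was taken over all annotated transcripts of a gene, short ones included. It ran from 749 bases for Sgk1 to 5263 for Plekhf1, with 956 for Fkbp5 and 4022 for Per1. The order of genes on this scale depends on it. Undivided, mean levels were 3449 for Per1, 1926 for Tsc22d3, 1842 for Sgk1, 1469 for Ddit4 and 1412 for Fkbp5. Cebpd (110), Plekhf1 (107) and Depp1 (48.3) were again the lowest. Between single libraries, the ratio of the highest to the lowest value was 6.36 for Depp1, 5.68 for Fkbp5 and 5.17 for Zbtb16, against 2.01 for Sgk1, 2.08 for Per1 and 2.12 for Ddit4. Of the 6 arms, HT lithium had the lowest median for 8 of the 10 genes, and HT vehicle for the other 2, Zbtb16 and Per1. Of these 8, Ddit4, Depp1, Cebpd and Plekhf1 had been selected on their lower values under lithium in HT. The share of all genes with such an order of medians was not computed. WT vehicle had the highest median for 4 genes and WT fluoxetine for another 4.

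**Figure D1:**
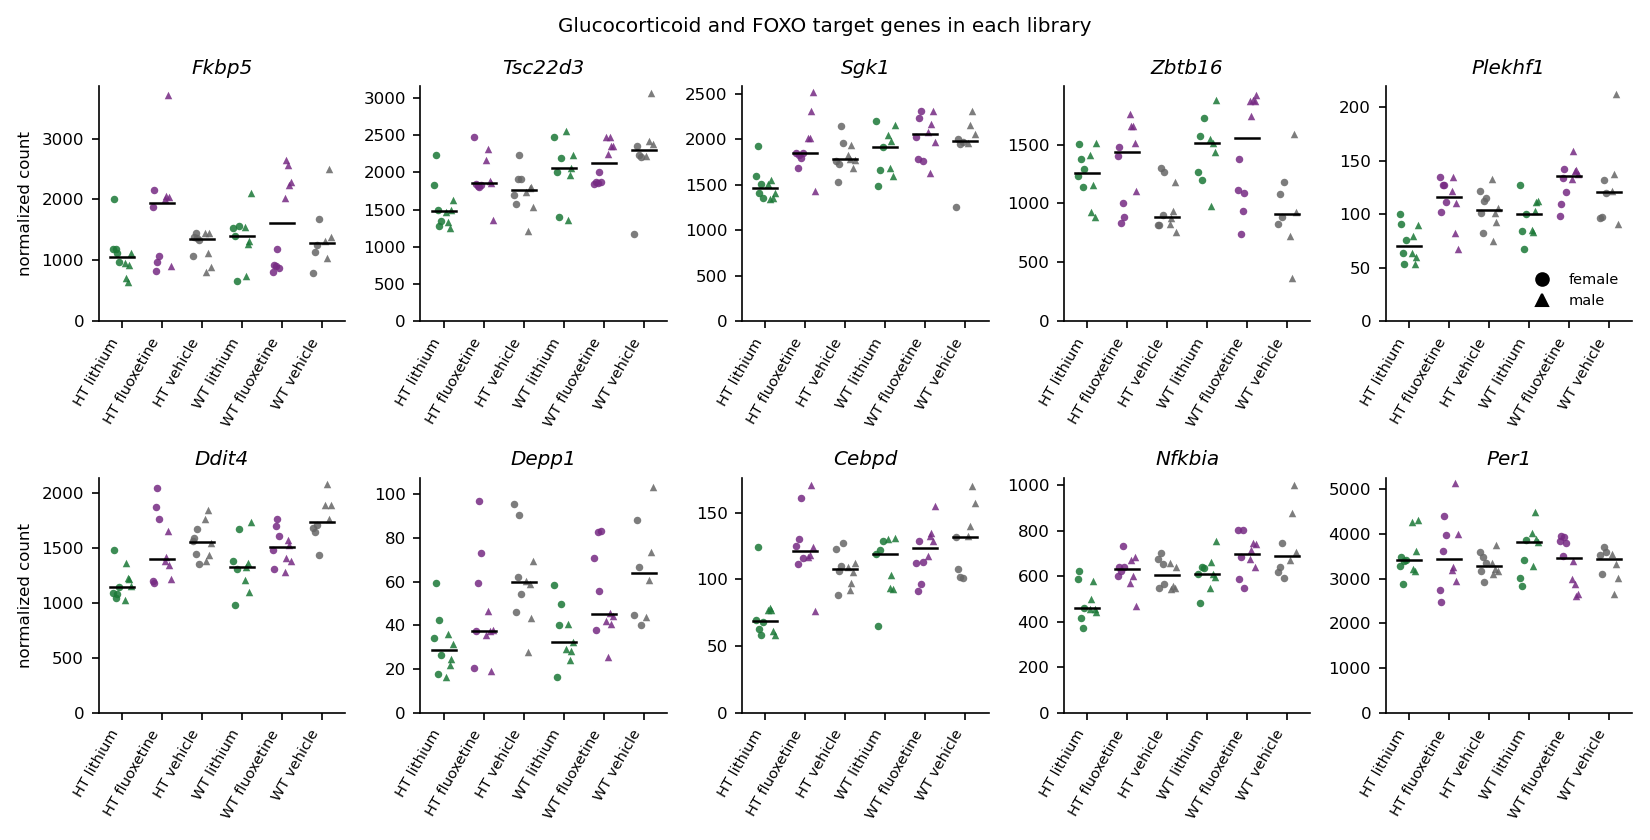
Normalized count of each of the 10 genes (vertical axes, from 0) in each library of the 6 arms (horizontal axes); circles are females, triangles males and bars arm medians. The HT lithium median is the lowest of the 6 for 8 genes, 4 of them selected on lower values under lithium in HT. Among these 4, the HT lithium points of Cebpd lie between 58.1 and 124, against 87.9 to 127 in HT vehicle libraries.

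Lithium was first compared with vehicle in WT mice, in the absence of the Shank2 mutation. Dosing went through the dam and no litter is given, so drug and litter differences cannot be told apart. Markers of neighbouring tissues also had lower medians under lithium here, as given below, and their part was not tested. Ddit4 and Depp1 fell, Zbtb16 rose, and the other 7 genes did not pass. In this comparison 8.53% of all genes tested were called by limma at an adjusted p under 0.05, 3.08% lower and 5.45% higher, so 3 of 10 called genes stand against a high background. Differences were below 0 for 8 of the 10 genes, against 52% of all genes, with a median of -0.19 on the log2(value + 1) scale against -0.01 for all genes.

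Ddit4 (ENSMUSG00000020108, chromosome 10, 59949669 to 59951834, minus strand, GRCm38) encodes REDD1, an inhibitor of the growth regulator mTORC1. Its normalized count was 984 at the lowest, 1326 at the median and 1733 at the highest in WT lithium libraries (n = 9), against 1441, 1736 and 2086 in WT vehicle libraries (n = 8). Of the 9 lithium libraries, 7 lay below every vehicle library. The log2 difference was -0.41 ± 0.10 (standard error of the fit; limma, adjusted p = 0.00603). It stayed past the threshold under all 11 alternative settings and without any 1 of the 17 libraries, with adjusted p up to 0.0461.

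Depp1 (ENSMUSG00000048489, chromosome 6, 116650609 to 116652794, plus strand), a gene known as a direct target of FOXO factors, had the largest difference of the 10. Its normalized counts were low: 16.3, 32.2 and 58.4 (lowest, median and highest) in WT lithium libraries, against 40.4, 63.8 and 103 in WT vehicle libraries. Of the 9 lithium libraries, 6 were below every vehicle library. The log2 difference was -0.86 ± 0.25 (limma, adjusted p = 0.026). The call was lost without any 1 of 5 libraries: WT lithium female 2, the lowest of all libraries (-0.67, adjusted p = 0.0818), WT lithium male 3, WT vehicle females 2 and 3 and WT vehicle male 4.

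Zbtb16 (ENSMUSG00000066687, chromosome 9, 48654297 to 48836222, minus strand) encodes PLZF, a zinc finger transcription factor that glucocorticoids induce in cultured human cells. It went the other way. Its normalized count was 976, 1515 and 1879.7 in WT lithium libraries, against 371, 907 and 1588 in WT vehicle libraries, and all 9 lithium libraries lay above the vehicle median. The log2 difference was 0.70 ± 0.17 (limma, adjusted p = 0.00775). Without WT vehicle male 2, which holds the lowest value of all libraries, it was 0.52 (adjusted p = 0.0343), and without the 3 libraries that stand apart 0.47 (adjusted p = 0.069).

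Among the 7 genes that did not pass, Plekhf1, which encodes an endosomal and lysosomal protein, had a log2 difference of -0.35 ± 0.14 (adjusted p = 0.113). Nfkbia, the inhibitor of NF-kB, had -0.25 ± 0.09 (adjusted p = 0.0862). Cebpd, a transcription factor of the acute phase response, had -0.26 ± 0.13 (adjusted p = 0.215). The best known receptor targets were closer to 0: Tsc22d3 had -0.14 ± 0.12, Sgk1 -0.07 ± 0.09, Fkbp5 -0.05 ± 0.22 and Per1 0.11 ± 0.09, with adjusted p of 0.517 to 0.923. The 95% interval for Fkbp5 ran from -0.49 to 0.39, an interval too wide to tell a fall from a rise. With only the WT lithium and WT vehicle groups in the fit, or with the length trend described below as a term, Ddit4 was the 1 gene of the 3 that still passed.

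Lithium was also compared with vehicle in HT mice, in libraries that the WT comparison does not share. These are the libraries that drew attention to Ddit4, Depp1, Cebpd and Plekhf1, so the values carry no p. A difference below 0 was seen for 8 of the 10 genes, against 48.7% of all genes tested, and the median was -0.30, against 0.00 for all genes. Over all genes, 0.888% were called in this comparison.

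Ddit4 was 1027, 1149 and 1485 (lowest, median and highest) in HT lithium libraries and 1354, 1553 and 1844 in HT vehicle libraries (n = 10 each), and 8 of 10 lithium libraries lay below every vehicle library. Depp1 was 16.5, 28.96 and 59.6 in HT lithium libraries and 27.8, 59.7 and 95.4 in HT vehicle libraries. The differences, -0.40 ± 0.09 for Ddit4 and -0.96 ± 0.23 for Depp1, are near those of WT mice, and the lithium effect in HT minus that in WT was 0.01 ± 0.13 for Ddit4 and -0.10 ± 0.34 for Depp1.

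Cebpd (ENSMUSG00000071637, chromosome 16, 15887286 to 15891031, plus strand) was 58.1, 69.1 and 124 in HT lithium libraries and 87.9, 108 and 127 in HT vehicle libraries. Of the 10 lithium libraries, 9 lay below every vehicle library, and the tenth, HT lithium female 2, was at 124. Its log2 difference was -0.56 ± 0.12. Plekhf1 (ENSMUSG00000074170, chromosome 7, 38216972 to 38228016, minus strand) was 53.4, 70.1 and 100.02 in HT lithium libraries and 75.1, 104 and 132 in HT vehicle libraries, a difference of -0.52 ± 0.13.

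Nfkbia (ENSMUSG00000021025, chromosome 12, 55489410 to 55492647, minus strand) was 373, 459 and 624.96 in HT lithium libraries and 546, 604 and 700.5 in HT vehicle libraries (-0.33 ± 0.08). Sgk1 (ENSMUSG00000019970, chromosome 10, 21882184 to 21999903, plus strand), the serum- and glucocorticoid-regulated kinase, was 1343, 1460.4 and 1926 in HT lithium libraries and 1531, 1781 and 2139 in HT vehicle libraries (-0.28 ± 0.08). For each of these genes 7 of 10 lithium libraries lay below every vehicle library.

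The remaining 4 genes overlapped widely. Fkbp5 (ENSMUSG00000024222, chromosome 17, 28399094 to 28517527, minus strand), a co-chaperone that lowers the affinity of the receptor for its hormone, had a difference of -0.22 ± 0.20. Tsc22d3 (ENSMUSG00000031431, chromosome X, 140539528 to 140600659, minus strand), the glucocorticoid-induced leucine zipper, had -0.19 ± 0.11. Per1 (ENSMUSG00000020893, chromosome 11, 69095217 to 69109960, plus strand), a repressor of the circadian clock, had 0.07 ± 0.08. Zbtb16 had 0.36 ± 0.16, with 886, 1259.8 and 1513 in HT lithium libraries and 757, 886 and 1302 in HT vehicle libraries.

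**Figure D2:**
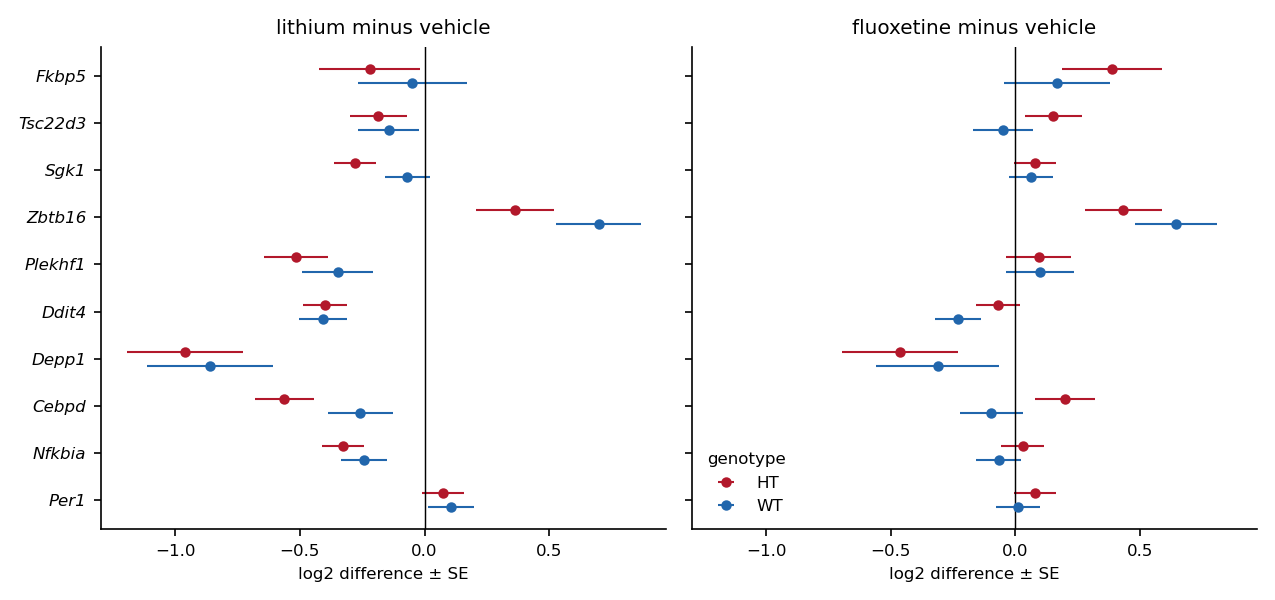
Log2 difference of each of the 10 genes (horizontal axes; points, with bars of 1 standard error of the fit) for lithium minus vehicle, left, and fluoxetine minus vehicle, right, in HT (red) and WT (blue) mice. Ddit4 and Depp1 lie left of 0 under lithium in both genotypes (-0.40 and -0.96 in HT, -0.41 and -0.86 in WT), and Zbtb16 lies right of 0 in all 4 comparisons.

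Between the genotypes under lithium, all 10 genes were lower in HT than in WT, against 49.9% of all genes, with a median difference of -0.30. This too is a description. Over all genes 0.114% were called. Cebpd differed by -0.57 ± 0.12, Plekhf1 by -0.41 ± 0.13, Tsc22d3 by -0.39 ± 0.12, Nfkbia by -0.33 ± 0.09 and Sgk1 by -0.31 ± 0.09. Per1, at -0.03 ± 0.09, was nearest to 0. Marker medians between the genotypes under lithium were -0.40 over 10 olfactory, -0.27 over 10 oligodendrocyte, -0.12 over 12 striatal and 0.08 over 5 choroid plexus markers. None of these markers was called, and their part was not tested. The lithium effect in HT minus that in WT had a median of -0.13 and was below 0 for 9 of the 10 genes, against 49.6% of all genes. That median was -0.21 without HT vehicle male 2 and -0.20 without HT lithium female 2. It was -0.09 to -0.07 without any 1 of WT lithium females 1 and 4, WT lithium male 5 and WT vehicle female 1, and -0.06 without the 3 libraries that stand apart. By limma, 0% of all genes were called for it (1218 genes at an unadjusted p under 0.05).

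Set against fluoxetine in HT mice, lithium libraries were lower for all 10 genes, against 50.3% of all genes, with a median of -0.36 and no test for the members; 1.06% of all genes were called. Cebpd differed by -0.76 ± 0.12, Fkbp5 by -0.61 ± 0.20 and Plekhf1 by -0.61 ± 0.13. Markers also had lower medians under lithium here, -1.09 over 10 olfactory, -0.26 over 12 striatal, -0.16 over 5 choroid plexus and -0.18 over 10 oligodendrocyte markers. None of these markers was called, and their part was not tested. In WT mice, where the comparison was tested, none of the 10 passed in limma (3 at an unadjusted p under 0.05) and 0.222% of all genes were called. The largest values there were -0.55 ± 0.24 for Depp1 (adjusted p = 0.407) and -0.45 ± 0.13 for Plekhf1 (adjusted p = 0.163). Plekhf1 was called when only the 4 groups compared entered the fit (adjusted p = 0.028).

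Fluoxetine was compared with vehicle next. In WT mice Zbtb16 rose and the other 9 genes did not pass, against 0.84% of all genes called, 0.324% higher. Its normalized count was 739, 1557 and 1919 (lowest, median and highest) in WT fluoxetine libraries, against 371, 907 and 1588 in WT vehicle libraries, a log2 difference of 0.65 ± 0.17 (limma, adjusted p = 0.0436). The call was lost without any 1 of 12 of the 18 libraries, and without WT vehicle male 2 the difference was 0.46 (adjusted p = 0.21). The lithium and fluoxetine comparisons in WT mice share their vehicle libraries, so the 2 rises of Zbtb16 are not separate observations of its vehicle level.

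Within WT fluoxetine libraries Zbtb16 fell into 2 ranges by sex. Zbtb16 was 1873, 1741, 1876, 1867 and 1919 in WT fluoxetine males, against 724, 371, 1588 and 928 in WT vehicle males. In WT females it was 1116, 1373, 739, 940.3 and 1089 under fluoxetine, against 823, 1079, 887 and 1178 under vehicle. Every fluoxetine male lay above every vehicle male, while fluoxetine and vehicle females overlapped. The log2 difference was 1.22 ± 0.23 in WT males (limma, adjusted p = 0.0109, 2.83% of all genes called) and 0.07 ± 0.23 in WT females (adjusted p = 0.923, 0.018% of all genes called).

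The difference between those effects of the sexes in WT was 1.15 ± 0.33 (limma, adjusted p = 0.0459), and 2.53% of all genes were called for it. Without WT vehicle male 2 it was 0.79 (adjusted p = 0.183), and the effect in WT males was 0.86 (adjusted p = 0.228). Fkbp5 had the same layout, with 2018 to 2648 in WT fluoxetine males and 816 to 1195 in WT fluoxetine females, but WT vehicle males ran from 1046 to 2495 and the difference of effects, 0.99 ± 0.43, did not pass (adjusted p = 0.17). Tsc22d3 also split by sex, with 2240 to 2478 in WT fluoxetine males and 1840 to 2007 in WT fluoxetine females. Per1 split the other way, with 2614 to 3398 in these males and 3509 to 3953 in these females. In WT vehicle libraries the sexes overlapped for Tsc22d3 and Per1, and the difference of effects passed for neither. The remaining members overlapped between the sexes under fluoxetine in WT.

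**Figure D3:**
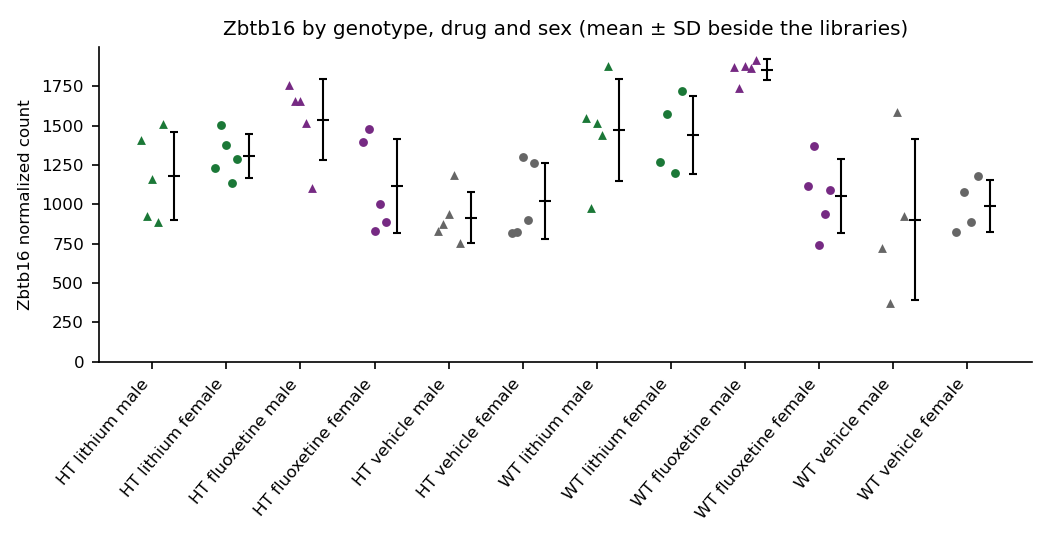
Zbtb16 normalized count (vertical axis, from 0) in each library of the 12 groups of genotype, drug and sex; points are libraries (triangles males, circles females), with the group mean ± SD beside them. The 5 WT fluoxetine males lie between 1741 and 1919, above all 4 WT vehicle males (371 to 1588) and all 5 WT fluoxetine females (739 to 1373).

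The HT vehicle libraries also entered the selection of Ddit4, Depp1, Cebpd and Plekhf1, so where they are used these 4 genes are given without a test. In HT mice none of the other 6 genes passed for fluoxetine in limma, with 1, Zbtb16, at an unadjusted p under 0.05 and 0.33% of all genes called. Zbtb16 had a log2 difference of 0.43 ± 0.16 (adjusted p = 0.176). It was 1760.2, 1658, 1659, 1514 and 1103 in HT fluoxetine males, against 828, 873, 939.6, 1183 and 757 in HT vehicle males. Thus 4 of the 5 fluoxetine males lay above every vehicle male. In HT females it was 1398, 1477, 832, 999.9 and 889 under fluoxetine, against 821, 822, 1302, 898 and 1265 under vehicle. The difference of these effects, males minus females, was 0.62 ± 0.31 (adjusted p = 0.999).

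Fkbp5 in HT mice had a difference of 0.39 ± 0.20 under fluoxetine (adjusted p = 0.36). In HT fluoxetine males 4 of 5 values were 2013 to 3709 and the fifth at 910.2, against 803 to 1450.0 in HT vehicle males. The highest Fkbp5 value of all libraries, 3709, was that of HT fluoxetine male 3, 1 of the 3 libraries that stand apart. Depp1 had -0.46 ± 0.23 and Cebpd 0.20 ± 0.12. None of the 6 passed for the fluoxetine effect in HT minus that in WT (0 of 6, and 0% of all genes, in limma; 0 of 6 and 1285 genes at an unadjusted p under 0.05).

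The genotypes were then compared without lithium. Under vehicle none of the 6 genes passed in limma (2, Tsc22d3 and Nfkbia, at an unadjusted p under 0.05, 0.762% of all genes called), and 8 of all 10 differences were below 0, against 51% of all genes. Tsc22d3 was 1215, 1766 and 2229 (lowest, median and highest) in HT vehicle libraries and 1174, 2294 and 3064 in WT vehicle libraries. All 10 HT libraries lay below the WT median, and the difference was -0.35 ± 0.12 (adjusted p = 0.141). It was -0.47 and passed (adjusted p = 0.0475) without WT vehicle female 1, whose 1174 is the lowest Tsc22d3 value of all libraries. Markers of neighbouring tissue were lower in HT here too, with medians of -0.65 over 12 striatal, -0.45 over 10 olfactory, -0.79 over 5 choroid plexus and -0.21 over 10 oligodendrocyte markers. Nfkbia had -0.25 ± 0.09 (adjusted p = 0.157) and Cebpd, without a test, -0.27 ± 0.13.

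Under fluoxetine none of the 10 genes differed between HT and WT by a called amount in limma (0 at an unadjusted p under 0.05, 0.222% of all genes called). The values ran from -0.26 ± 0.23 for Depp1 to 0.10 ± 0.20 for Fkbp5. Between males and females over all arms none passed either (2 at an unadjusted p under 0.05, 0.108% of all genes called). Depp1 had a male minus female difference of -0.35 ± 0.14 (adjusted p = 0.869) and Fkbp5 of 0.26 ± 0.12 (adjusted p = 0.906).

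Within WT males, lithium gave a log2 difference of -0.52 ± 0.13 for Ddit4 (limma, adjusted p = 0.00866), -1.12 ± 0.35 for Depp1 (adjusted p = 0.0313) and 0.86 ± 0.23 for Zbtb16 (adjusted p = 0.0138), with 10.2% of all genes called. In WT females the values were -0.30 ± 0.14, -0.61 ± 0.37 and 0.54 ± 0.25, and 0% of all genes passed in limma (1227 genes at an unadjusted p under 0.05). The difference of the lithium effects between the sexes in WT passed for no member (lowest adjusted p = 0.614; 1 at an unadjusted p under 0.05) and 0% of all genes were called for it in limma. Without WT vehicle male 2 none of the 3 genes passed in WT males, with adjusted p of 0.0822, 0.11 and 0.251, nor did they when other groups were left out of the fit (0.181 to 0.313) or with the length trend as a term (0.19 to 0.381). In HT mice, lithium differences were -0.41 in males and -0.39 in females for Ddit4, -0.94 in males and -0.98 in females for Depp1, and -0.55 in males and -0.57 in females for Cebpd.

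Other genes of the same pathways were read from fixed lists. Of 29 other glucocorticoid-induced genes tested, 3 fell and none rose under lithium in WT, against 3.08% of all genes lower and 5.45% higher. They are Mt1 (-0.44 ± 0.11, adjusted p = 0.00965) and Mt2 (-0.46 ± 0.15, adjusted p = 0.0441), metallothioneins that bind metals, and the protease gene Htra1 (-0.29 ± 0.09, adjusted p = 0.0471). The median of the 29 was -0.14, with 22 below 0, against 52% of all genes. In HT mice under lithium none passed, against 0.888% of all genes, and 23 were below 0, against 48.7% of all genes, with a median of -0.11. For lithium against fluoxetine in HT, Plin4 (-1.64), a lipid droplet gene, Mt1 (-0.44), Rhob (-0.25) and Mt2 (-0.51) were lower, 4 of 29 called against 1.06% of all genes, with a median of -0.18. Under fluoxetine none passed in either genotype, against 0.84% of all genes in WT and 0.33% in HT. The medians were -0.01 in WT and 0.06 in HT. Between HT and WT under vehicle none passed, against 0.762% of all genes. There 28 of 29 were below 0, against 51% of all genes, with a median of -0.16.

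Of 20 other FOXO-induced genes tested, Cited2, a transcriptional co-regulator, fell under lithium in WT (-0.37 ± 0.09, limma, adjusted p = 0.0062). The other 19 did not pass, against 8.53% of all genes called, and the median was 0.03. In HT mice Sesn1, a stress-induced inhibitor of mTORC1, fell under lithium (-0.21 ± 0.06, limma, adjusted p = 0.0419). Again 19 did not pass, against 0.888% of all genes called. Sesn1 (-0.23) and Cited2 (-0.32) were also lower under lithium than under fluoxetine in HT, 2 of 20 called against 1.06% of all genes. Among 18 FOXO factors and genes of their PI3K and AKT input, Pik3r1, a regulatory subunit of PI3K, rose under lithium in WT (0.16 ± 0.05, adjusted p = 0.0208), and Pik3r2, another such subunit, fell (-0.12 ± 0.04, adjusted p = 0.0285). Pik3r1 also rose under fluoxetine in WT (0.19 ± 0.04, adjusted p = 0.026), and was higher in HT than in WT under vehicle (0.18 ± 0.04, adjusted p = 0.034). These comparisons share the WT vehicle libraries, with 8.53%, 0.84% and 0.762% of all genes called in turn. In HT none of the 18 passed for either drug, against 0.888% of all genes for lithium and 0.33% for fluoxetine.

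Of 15 tested genes of the receptor itself, its cofactors and steroid handling, Ncoa2, a coactivator, rose under lithium in WT (0.20 ± 0.06, limma, adjusted p = 0.0274). The other 14 did not pass, against 8.53% of all genes called. Crhbp, the binding protein of corticotropin-releasing hormone, was lower in HT than in WT under lithium (-0.40 ± 0.08, limma, adjusted p = 0.0212). There 0.114% of all genes were called. Levels of Nr3c1, the glucocorticoid receptor gene, ran from 2075 to 3586 in HT and from 2132 to 3631 in WT libraries, and of Nr3c2, the mineralocorticoid receptor gene, from 886 to 1278 in HT and from 889 to 1272 in WT libraries.

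Marker lists of neighbouring tissues moved with some comparisons. Under lithium in WT the median log2 difference was -0.68 over 5 choroid plexus markers and -0.46 over 10 olfactory bulb markers. It was -0.41 over 12 striatal markers and -0.53 over 5 red cell genes. None of these genes passed, against 8.53% of all genes. Summed striatal markers ran from 10736 to 20939.6 in WT lithium libraries and from 9904 to 45447 in WT vehicle libraries, and summed olfactory markers from 2271 to 7505 in WT lithium and from 1952 to 25899 in WT vehicle libraries. Summed choroid plexus markers ran from 162 to 237 in WT lithium and from 189.8 to 582 in WT vehicle libraries. In HT mice under lithium the same medians were 0.13, -0.25, 0.21 and 0.03, and none of these genes passed, against 0.888% of all genes. Drd1, which defines striatal projection neurons, was above 0 in all libraries (110 to 1270.1), and Ttr, of the choroid plexus, was 0 to 252. Under fluoxetine in HT the olfactory and striatal medians were 0.86 and 0.48, with no marker of the 2 lists called, against 0.33% of all genes. Under fluoxetine in WT, Hbb-bs, Hba-a1, Hbb-bt and Alas2, 4 of 5 red cell genes, fell, with differences of -1.09 to -0.87. In that comparison 0.84% of all genes were called. The part of these tissues in the results was not tested. In bulk tissue, fewer cells of a type and less RNA per cell cannot be told apart.

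Transcript length marked another difference between libraries, a trend taken as the rank correlation across genes between transcript length and a library's deviation from the mean of the others. Its median was 0.10 in HT lithium, 0.04 in HT fluoxetine, -0.04 in HT vehicle, 0.05 in WT lithium, 0.04 in WT fluoxetine and -0.05 in WT vehicle libraries, and WT vehicle male 2 had the lowest value, -0.33. With this trend as a term, the lithium difference in WT was -0.47 for Ddit4 (adjusted p = 0.0286), -1.05 for Depp1 (adjusted p = 0.064) and 0.73 for Zbtb16 (adjusted p = 0.0636). These differences were no smaller than without the term, while 62 genes in all were called in place of 1421. Fkbp5, Tsc22d3 and Sgk1 then had differences of 0.31, 0.07 and 0.03, against -0.05, -0.14 and -0.07 without the term, and did not pass with or without it.

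The 10 genes were next followed from library to library within groups. The mean of each of the 12 groups was subtracted, so that neither genotype, drug nor sex enters, and the remaining deviations were correlated over 57 libraries. The 45 pairs had a median Pearson r of 0.26, from -0.30 to 0.73, with 38 above 0 and 15 over 0.4. The median r of a member with all other genes tested was near 0 (-0.0016). All 57 libraries enter every pair, so the pairs share whatever sets a library apart.

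There were 2 blocks, read after the values were seen. Fkbp5, Tsc22d3 and Zbtb16 moved together, with r of 0.48 to 0.73. Ddit4, Depp1 and Cebpd moved together, with r of 0.42 to 0.64. Between the blocks r ran from -0.30 to 0.28. Fkbp5 and Tsc22d3 had r = 0.725 (Spearman's rho 0.731), 0.661 in HT and 0.804 in WT libraries. Ddit4 and Depp1 had r = 0.639 (rho 0.568), 0.729 in HT and 0.504 in WT libraries, and 0.785 in females and 0.342 in males. Fkbp5 and Ddit4 had r = -0.0041. Within the blocks r varied between sexes and arms. Depp1 and Cebpd had 0.616 in females and 0.08 in males. Ddit4 and Cebpd had -0.15 in HT vehicle and -0.06 in WT vehicle libraries, and positive r in every other arm. In WT fluoxetine libraries Zbtb16 had -0.24 with Fkbp5 and -0.04 with Tsc22d3, and positive r with both in every other arm. These differences were not tested, and each arm holds only 8 to 10 libraries.

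Sgk1, Plekhf1 and Nfkbia were placed in neither block. Sgk1 had r = 0.641 with Tsc22d3 and 0.494 with Cebpd. Plekhf1 had 0.601 with Tsc22d3 and 0.44 with Fkbp5, against 0.174 with Zbtb16 and 0.173 to 0.259 with Ddit4, Depp1 and Cebpd. Nfkbia had 0.55 with Cebpd, 0.46 with Ddit4 and 0.349 with Depp1, against 0.036 to 0.281 with Fkbp5, Tsc22d3 and Zbtb16. Its r with Plekhf1 was 0.461. Per1 stood apart, with a median r of 0.0723 with the other members. Zbtb16, which rose under lithium in WT where Ddit4 and Depp1 fell, also had negative r within groups with Ddit4 (-0.302) and Depp1 (-0.204).

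**Figure D4:**
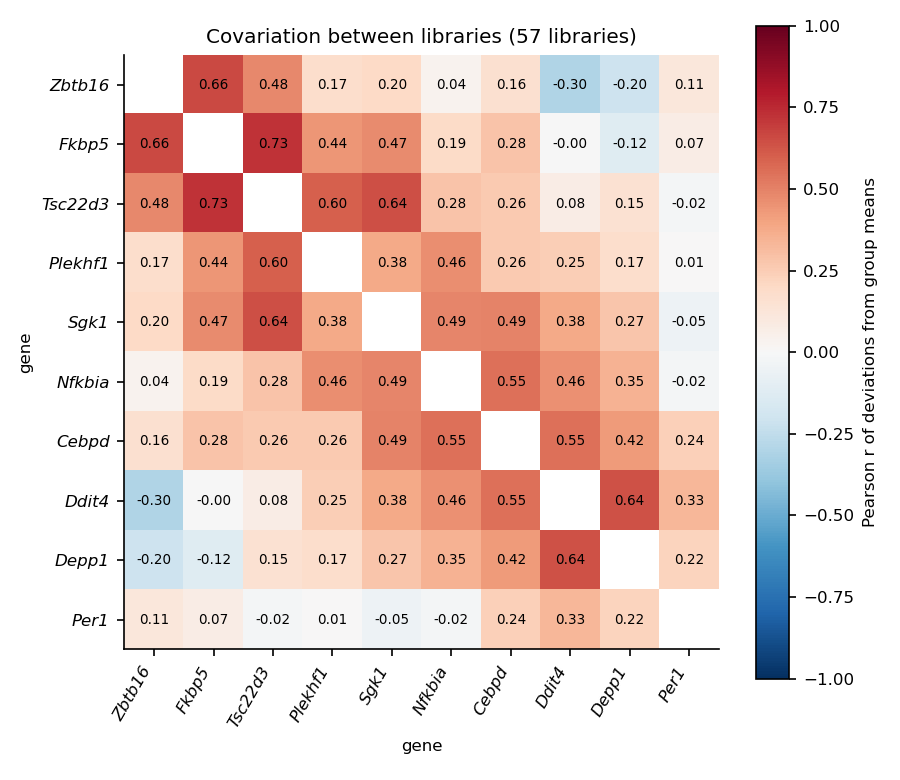
Pearson correlation between the 10 genes (rows and columns) of deviations from the 12 group means over 57 libraries; colour and printed number give r. Fkbp5, Tsc22d3 and Zbtb16 share r of 0.48 to 0.73 at the upper left and Ddit4, Depp1 and Cebpd 0.42 to 0.64 at the lower right, while Per1 has values from -0.05 to 0.33.

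The deviations were then set against the mean deviation of each fixed list and the length trend, 190 relations in all, with two-sided permutation of libraries within groups (100000 resamples, smallest possible p 1e-05) and Benjamini-Hochberg adjustment over the 190. For r, 14 relations passed. The members and lists were chosen with earlier results of these libraries known, and the HT lithium libraries enter too. These relations had been planned as descriptions, so the added p-values describe strength and are not tests of relations chosen blind. Fkbp5 followed the other glucocorticoid-induced genes most closely, with r = 0.871 (adjusted permutation p = 0.00063; rho 0.818, adjusted permutation p = 0.00063). Without the 2 libraries farthest out, r was 0.831, and it was 0.839 in HT and 0.925 in WT libraries. Of the 29 genes, 19 had r over 0.4 with Fkbp5, led by Sult1a1 (0.882), Plin4 (0.862) and Mertk (0.823), whereas Dusp1 (-0.493) and Arl4d (-0.47) went against it.

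Tsc22d3 (r = 0.762), Sgk1 (0.587), Zbtb16 (0.586) and Plekhf1 (0.527) were related to the same list, with adjusted permutation p of 0.00063 to 0.0136 for r and 0.00063 to 0.0123 for rho (0.786, 0.517, 0.62 and 0.51). Without the 2 libraries farthest out their r was 0.747, 0.47, 0.595 and 0.502. Ddit4 was not found to follow that list (r = 0.158, rho 0.0813, adjusted permutation p = 0.611 and 0.859), and 1 of the 29 genes had r over 0.4 with it. Ddit4 was related to the other FOXO-induced genes instead (r = 0.519, adjusted permutation p = 0.0105; rho 0.462, adjusted permutation p = 0.0263), with r = 0.461 without the 2 farthest libraries, although no single gene of the 20 exceeded 0.4. Depp1 had r = 0.28 with that list (rho 0.244, adjusted permutation p = 0.364 and 0.401). Differences between these correlations were not tested.

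Immediate early genes, which neurons switch on with activity, ran against the Fkbp5 block. The list had r = -0.67 with Fkbp5 (adjusted permutation p = 0.00228; rho -0.54, adjusted permutation p = 0.00974), -0.551 with Tsc22d3 (adjusted permutation p = 0.00739; rho -0.544, adjusted permutation p = 0.00624) and -0.523 with Zbtb16 (adjusted permutation p = 0.00739; rho -0.552, adjusted permutation p = 0.00456). Without the 2 farthest libraries r was -0.67, -0.48 and -0.604, and each was negative in HT, in WT, in females and in males. Dusp1 belongs to both this list and the glucocorticoid list.

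**Figure D5:**
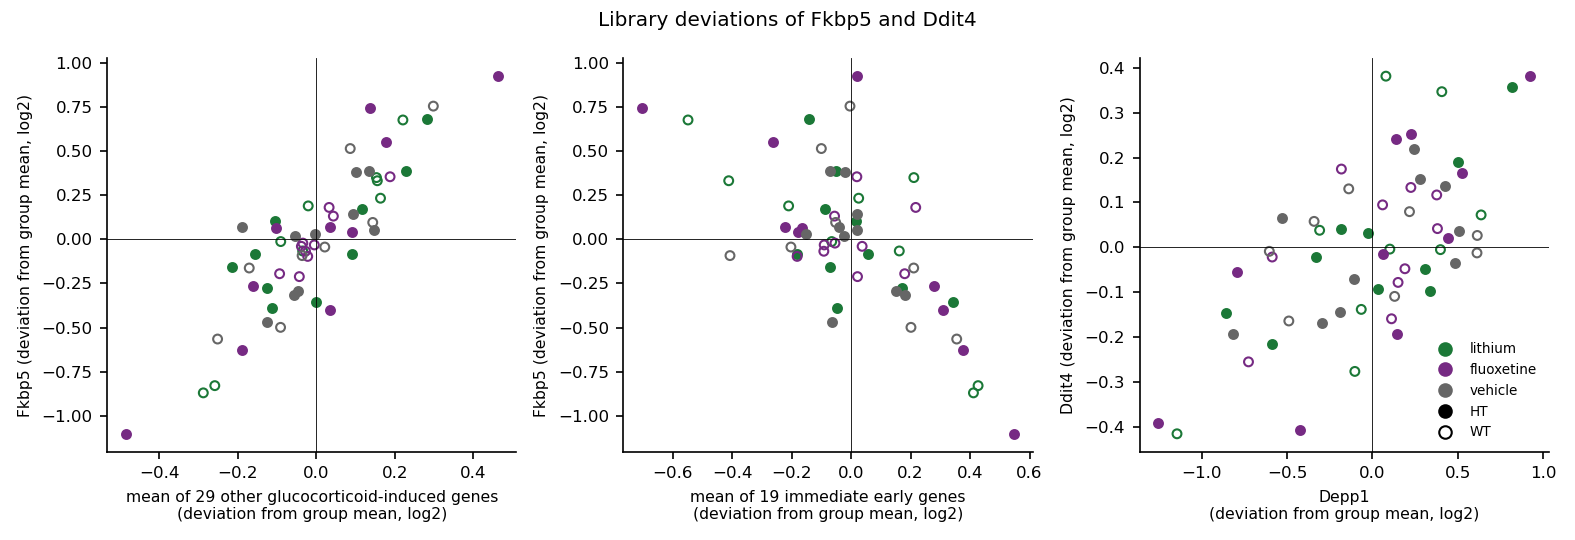
Deviation from the group mean (log2) in 57 libraries, of Fkbp5 against the mean of 29 other glucocorticoid-induced genes (left) and of 19 immediate early genes (middle), and of Ddit4 against Depp1 (right); colours give the drug, filled points HT and open points WT. The points rise in the left and right panels (r = 0.871 and 0.639) and fall in the middle one (r = -0.67).

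Per1 was related to other genes. Its r was 0.58 with 16 other circadian clock genes (adjusted permutation p = 0.00095; rho 0.615, adjusted permutation p = 0.00063), 0.516 with 9 NF-kB target and inhibitor genes (adjusted permutation p = 0.0158; rho 0.446, adjusted permutation p = 0.0346) and 0.497 with the FOXO and PI3K list (adjusted permutation p = 0.00739; rho 0.473, adjusted permutation p = 0.0254). Without the 2 farthest libraries the values were 0.528, 0.452 and 0.466. The labels do not state the time of day at which tissue was taken.

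The remaining 2 relations were with a marker list and with the length trend. Cebpd had r = -0.516 with 10 oligodendrocyte markers (adjusted permutation p = 0.00741; rho -0.465, adjusted permutation p = 0.0141; -0.508 without the 2 farthest libraries), with -0.777 in HT and -0.131 in WT libraries, a difference not tested. Over HT lithium libraries the sum of these markers ran from 59039 to 142439, against 86633 to 139387 in HT vehicle libraries. Tsc22d3 had r = -0.461 with the length trend (adjusted permutation p = 0.0233; rho -0.495, adjusted permutation p = 0.0137; -0.482 without the 2 farthest libraries). The part of either in the drug differences was not tested.

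Genes outside the lists whose deviations best matched the mean standardized deviation of the 10 members were ranked over 16411 genes, and 23 had r over 0.6. In order they began with Susd6 (0.731), Tcim (0.687), Cavin2 (0.687), Xdh (0.684), Il1r1 (0.677), Trp53inp1 (0.676), Zfp189 (0.665), A730020M07Rik (0.664), Lrrc58 (0.664) and Mfsd2a (0.663), over 57 libraries. Mfsd2a, a lipid transporter of the blood-brain barrier, and Susd6 had higher r with Fkbp5 (0.776 and 0.773) than with Ddit4 (0.0762 and 0.156). Zfp189, a zinc finger gene, had 0.348 with Fkbp5 and 0.509 with Ddit4.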

How the data were processed

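RNA was sequenced from prefrontal cortex after stranded poly(A) library preparation, per the labels' protocols. The authors deposited normalized estimated counts (a signal, not whole counts). The submitters' processing notes name DESeq2 1.19.11, R 3.6.0 and Salmon 0.11.2, and the build GRCm38; filters and the strand setting used are not given there. Whole reads could not be recovered: 4.65 to 32.7% of values under 10 were whole multiples of a library's commonest lowest value (tolerance 0.01). Group differences came from limma 3.58.1 (R 4.3.3; trend and robust options) on log2(value + 1), which understates changes of low genes, in 1 fit of 12 groups over genes with a mean of at least 10. Effects over both sexes average the female and male effects. P-values were adjusted by Benjamini-Hochberg over all 16659 genes. The fit was tested on simulated data first. Gene coordinates follow GENCODE vM21.

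The members and lists were chosen with earlier results of these data known. Genes named are the 10 members, Shank2, defining markers, up to 4 called genes of each list and comparison, and the 10 genes most correlated with the members; a few genes that this rule names are not reported here. Correlations with lists had been planned as descriptions; their permutation p-values were added. Alternatives were other pseudocounts, filters and scalings, fewer groups, plain moderation, a replicate block, the length trend and each library left out.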

Additional observations from a re-analysis of the deposited data

Results flagged for a closer look

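Of 120 combinations of member and group, 10 had a library far from the rest of its group by Dixon's criterion. Chance gives about 1 in 20 for a single combination. The members vary together between libraries, so the 120 are not separate trials and the count cannot be judged against that rate. HT lithium female 2 was the highest of its group for Ddit4 (1485, next 1144), Fkbp5 (2013, next 1185) and Cebpd (124, next 69.9). WT vehicle female 1, 1 of the 3 libraries that stand apart, was the lowest for Sgk1 (1254, next 1944) and Tsc22d3 (1174, next 2205). WT fluoxetine female 4 was the highest for Fkbp5 (1195, next 921) and Tsc22d3 (2007, next 1871). HT fluoxetine female 1 was the highest for Tsc22d3 (2476, next 1849.5). WT lithium female 2 was the lowest for Cebpd (65.0, next 119), and WT fluoxetine male 2 the lowest for Depp1 (25.5, next 40.5).

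The fluoxetine effect on Zbtb16 in WT was larger in males than in females by 1.15 ± 0.33 on the log2 scale (limma, adjusted p = 0.0459), and by 0.79 (adjusted p = 0.183) without WT vehicle male 2.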

How the results depend on the processing

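Over 11 alternative settings and the leaving out of single libraries, no called difference changed direction. With the length trend as a term Fkbp5, Tsc22d3 and Sgk1, none of them called, had differences above 0 for lithium in WT (0.31, 0.07 and 0.03, against -0.05, -0.14 and -0.07). The count of 3 members called for lithium in WT was 1, Ddit4, when other groups were left out of the fit (204 genes called in all, in place of 1421) or with the length trend as a term (62 genes), and 2 to 4 with 1 library left out. Without WT vehicle male 1 Nfkbia joined the 3 (adjusted p = 0.0382), and without WT vehicle male 4 Plekhf1 took the place of Depp1 (adjusted p = 0.038). Depp1 drops from the test at a minimum mean of 50. The count of 1 for fluoxetine in WT was 0 with no filter on low values, with only the groups compared, with the replicate block, with the length trend, with the 3 least correlated libraries left out (a setting chosen after seeing the data), and 0 to 1 with 1 library left out. For lithium against fluoxetine in WT the count of 0 was 1 with only the groups compared, and for HT against WT under vehicle it was 0 to 1 with 1 library left out.

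The replicate block lowered no other count. Over 300 pairs of same-numbered libraries of different groups, deviations correlated at -0.314 to 0.265 (median -0.0078). The median of pairs with different numbers was 0.0006. These pooled medians show no pairing by number but cannot exclude it within some of the groups. The difference of the fluoxetine effects on Zbtb16 between the sexes in WT kept its call under 5 of 11 settings and without 5 of 18 libraries. The median r of the members ran from 0.2 to 0.301 over 8 settings and from 0.213 to 0.309 with 1 library left out. The median difference of the members for lithium in HT ran from -0.302 to -0.221 over the settings. That of the lithium effect in HT minus that in WT ran from -0.173 to -0.057 over the settings and from -0.206 to -0.0734 with 1 library left out. Causes were not tested. Depp1, Cebpd and Plekhf1 have low values. For lithium against vehicle in either genotype, Depp1 had the largest standard error of the members. Those of Cebpd and Plekhf1 were smaller than those of Fkbp5 and Zbtb16.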

Other observations

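In some libraries the 10 genes lay to 1 side of the group mean together. In HT lithium female 2 all 10 were above the mean of its group, with a mean standardized deviation of 1.65, the highest of 57 libraries, followed by WT vehicle male 3 (1.22, 9 of 10 above). In HT vehicle male 2 all 10 were below it (-0.917). HT fluoxetine male 5 (-1.56) and WT lithium female 2 (-1.13) had the lowest means, with 2 and 3 genes above. HT lithium female 2 is thus a library in which the members were high in the arm whose medians were mostly the lowest.

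Genes of other fixed lists also passed in the comparisons above, at adjusted p-values of 0.00314 to 0.0458 in limma. Under lithium in WT, Clock, a core clock activator (0.22), and Sesn2, of the integrated stress response (0.26), rose, and Igf2, a growth factor of leptomeninges and vessels (-0.35), fell. Under lithium in HT, Dusp6, an immediate early phosphatase gene (0.37), and Lum, a collagen-binding proteoglycan gene of the leptomeninges (0.67), rose. For lithium against fluoxetine in HT, Dusp6 (0.51), Aif1, a microglial gene (0.41), and Neurod6, of cortical excitatory neurons (0.39), were higher under lithium. Under fluoxetine in HT, Gpr34, a microglial receptor gene, fell (-0.47). In HT against WT under vehicle, Ntsr2, an astrocyte receptor gene (-0.26), and Clic6, of the choroid plexus (-1.87), were lower in HT.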
